A study of Mus musculus with 2 samples.

Results

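The genes described here are inhibitors of the cell cycle, the Gadd45 stress genes and the p53 pathway genes around them, read in isolated mouse glomeruli. The members were Gadd45a, Gadd45b, Gadd45g, Cdkn1a, Cdkn1b, Cdkn1c, Cdkn2b, Trp53, Mdm2 and Ccng1, taken as every probe set that the platform annotation gives exactly 1 gene symbol, where that symbol is on this list. Of these 10 genes, 9 had such a probe set, with 17 probe sets among the 45101 on each array. Trp53, the gene for p53 itself, was not analysed here. All 9 genes were above the detection floor on both arrays in the probe set that represents them, among 13290 measured genes. They were grouped by function with the differences between these arrays already known, so their values are a description and carry no test.

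Glomeruli, the filtering units of the kidney, came from male mice of the C57BL/6J background, and GC-A and p38 were floxed in both groups (GC-A fl/fl, p38 fl/fl). GC-A is the cyclic GMP-forming receptor for natriuretic peptides, and p38 belongs to the stress kinases. The double knockout also carried a Nephrin-Cre allele, given as Cre/+, in which the nephrin promoter drives Cre in podocytes, the epithelial cells of the filter. The floxed control was +/+ for Nephrin-Cre, read here as lacking the Cre allele. Mice of both genotypes were 2 months old and had been fed 6% NaCl for 3 weeks while a minipump delivered aldosterone (0.2 µg/kg per minute), so no group without the salt and hormone load is compared. There was 1 array per genotype, and the number of mice behind it is not given in the labels. No difference below therefore has a replicate check, a standard error or a p-value, and higher or lower refers to these arrays only. Signals are MAS5 intensities on a linear scale, and differences are log2 of the double knockout over the floxed control. A signal under the floor of 52.7 was raised to it, so a fold against such a signal is a lower bound. A probe set under the floor on both arrays was taken as not measured.

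Progress through the cell cycle is driven by cyclin-dependent kinases and held back by small inhibitor proteins. The Cip/Kip inhibitors p21 (Cdkn1a), p27 (Cdkn1b) and p57 (Cdkn1c) bind cyclin-kinase complexes, while the INK4 inhibitors such as p15 (Cdkn2b) bind the kinases Cdk4 and Cdk6. Mature podocytes are known to have left the cell cycle and to express p27 and p57. The Gadd45 proteins are induced by stress and bind, among others, p21, PCNA and the kinase Map3k4, which lies upstream of p38 and JNK. Cdkn1a, Gadd45a, Mdm2 and Ccng1 are known targets of p53, and Mdm2 in turn marks p53 for degradation.

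Other readings from the same arrays are given first. Npr1, which encodes GC-A, read 102 in double knockout glomeruli and 167 in control glomeruli, a log2 difference of -0.71. Mapk14, which encodes p38α and is taken as the floxed p38 gene because the labels name no isoform, read 2607 in the double knockout against 2628 in the control in its brightest probe set, and its other sets above the floor differed by -0.23 to 0.25. Where these probe sets lie relative to the deleted exons is not given in the sources used here, so they do not check the labels. The podocyte gene Nphs1, which encodes nephrin, read 8373 in double knockout glomeruli and 5320 in control glomeruli. Markers of glomerular cells were higher together, with a median log2 difference of 0.57 over 62 podocyte, endothelial, mesangial and parietal markers, of which 56 were above 0. All 21 proximal tubule markers (median -0.81) and all 19 markers of later nephron segments (median -0.67) were lower. The tubule signals were not absent, since the proximal markers summed to 190562 in the double knockout against 297117 in the control. In RNA from a mixed sample, fewer cells of a type and less RNA per cell cannot be told apart. Each member is therefore also given after the glomerular marker median of 0.57 was subtracted from every gene, called recentring below.

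Of the 9 measured members, 3 exceeded the control by 2-fold or more in the double knockout, namely Gadd45b, Cdkn2b and Cdkn1a. Over all 13290 measured genes, 3.53% were at least 2-fold higher. No member was at least 2-fold lower, against 2.87% of all genes. The same 3 members passed a 1.5-fold rule upward and none downward (13.7% and 10% of all genes), and Gadd45b alone passed a 3-fold rule (0.549% of all genes upward and 0.256% downward). The median difference of the members was 0.25, with 7 above 0 and 2 below, and that of all measured genes was 0.07, with 56.1% above 0. After recentring the members' median was -0.32, beside a median of -0.50 over all measured genes. Gadd45b alone then stayed at least 2-fold higher and no member was lower by that much, beside 77 and 2047 of all 13290 genes.

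**Figure D1:**
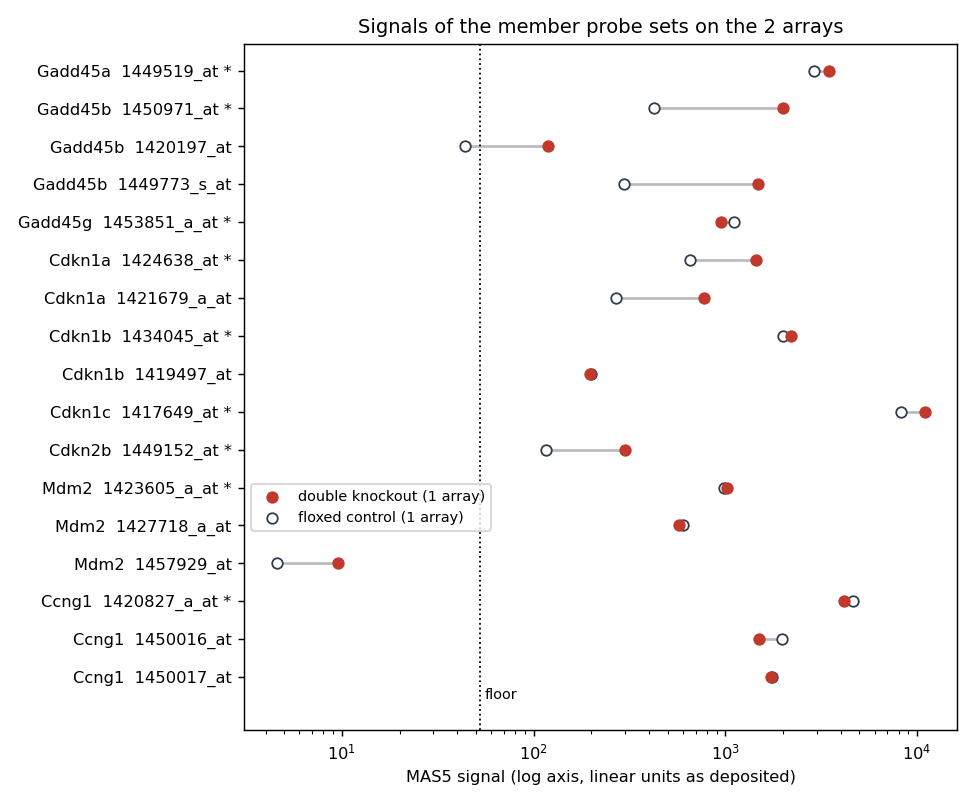
Each row is a probe set of a member gene, with its MAS5 signal on a log axis in the double knockout (filled) and in the floxed control (open), 1 array each and no error bars. The dotted line is the floor of 52.7, and an asterisk marks the set that represents its gene. The 3 Gadd45b sets, both Cdkn1a sets and the Cdkn2b set have the widest gaps above the floor, while the Cdkn1b points and those of the brighter Mdm2 sets nearly coincide.

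The Gadd45 genes differed from each other more than any other group of members. Gadd45b, an early-response gene induced by inflammatory cytokines and transforming growth factor β, read 1992 in double knockout glomeruli and 422 in control glomeruli in probe set 1450971_at. This was a log2 difference of 2.24 or 4.72-fold higher, and only 16 of the 13290 measured genes had a larger one. Probe set 1449773_s_at, a type that can bind transcripts of more than 1 gene, read 1483 in the double knockout against 295 in the control, which was 5.03-fold higher. The dim probe set 1420197_at read 118 in double knockout glomeruli and 43.8, below the floor, in control glomeruli, so that its fold of at least 2.24 is a lower bound. All 3 Gadd45b sets were thus higher in the double knockout, and the differences of the 2 bright ones were 0.09 apart on the log2 scale. Between the sets of genes that had exactly 2 above the floor, the median gap was 0.22. After recentring the Gadd45b difference was 1.67, or 3.19-fold higher.

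Gadd45a, the p53-inducible member, read 3459 in the double knockout against 2910 in the control, a difference of 0.25. Gadd45g, which is known for its role in cytokine responses and in sex determination, read 947 in double knockout glomeruli and 1109 in control glomeruli, a difference of -0.23. Each had a single probe set, so neither value has a check by a second set. Gadd45a was 0.25 above 0 as deposited and at -0.32 after recentring, and Gadd45g was below 0 under both, at -0.79 after recentring. The difference of Gadd45b stood 1.99 above that of Gadd45a and 2.47 above that of Gadd45g. A shift common to all genes, such as recentring, leaves these gaps as they are.

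The sequences before the starts of the Gadd45 genes are shown because the 3 relatives stand so far apart on these arrays. Each is the 250 bases upstream of a RefSeq transcription start in GRCm38.p6, with capitals on every match to the motifs searched on both strands. Gadd45b lies at chr10:80929841-80930090, plus strand, Gadd45a at chr6:67037408-67037657, minus strand, and Gadd45g at chr13:51846425-51846674, plus strand.
Gadd45b: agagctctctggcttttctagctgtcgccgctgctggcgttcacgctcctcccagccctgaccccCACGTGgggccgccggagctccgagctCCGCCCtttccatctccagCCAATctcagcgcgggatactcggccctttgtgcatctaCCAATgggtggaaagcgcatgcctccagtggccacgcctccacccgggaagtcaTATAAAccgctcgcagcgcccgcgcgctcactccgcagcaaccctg
Gadd45a: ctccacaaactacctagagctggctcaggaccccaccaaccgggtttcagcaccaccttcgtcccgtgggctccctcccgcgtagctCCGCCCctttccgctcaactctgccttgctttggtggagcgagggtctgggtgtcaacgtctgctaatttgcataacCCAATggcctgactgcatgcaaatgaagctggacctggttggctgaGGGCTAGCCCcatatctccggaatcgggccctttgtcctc
Gadd45g: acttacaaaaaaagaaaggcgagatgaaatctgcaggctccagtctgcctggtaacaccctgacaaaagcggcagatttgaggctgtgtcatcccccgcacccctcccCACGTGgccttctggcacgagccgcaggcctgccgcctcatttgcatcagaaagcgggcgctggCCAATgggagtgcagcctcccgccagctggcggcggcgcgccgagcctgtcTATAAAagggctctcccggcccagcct
The Gadd45b window held an E-box (CACGTG) at position -185 from the start, a GC box (GGGCGG, here on the minus strand) at -158, CCAAT at -139 and -100 and TATAAA at -46. Gadd45g shared the E-box, at -142, together with CCAAT at -78 and TATAAA at -27, and had no GC box. Gadd45a had a GC box, CCAAT and a match to the p53 consensus decamer at -40, and neither the E-box nor TATAAA. Over 32851 such windows of all genes, 6.02% held the E-box, 32.7% the GC box, 33.8% CCAAT, 12.4% TATAAA and 7.13% the p53 decamer. The E-box, CCAAT and TATAAA were added to the search after the sequences had been seen. The E-box and TATAAA were thus present in both Gadd45b and Gadd45g, and a link between motifs and signals was not tested. None of the 10 member windows held AP-1 (TGANTCA, in 6.75% of all windows), the NF-κB consensus decamer (3.90%) or the steroid receptor hexamer AGAACA (16.1%). The FoxO motif GTAAACA, in 3.17% of all windows, was found in the Mdm2 window only. These letters describe the window and say nothing of which factors were bound.

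Among the Cip/Kip inhibitors Cdkn1a was higher and the others differed little. Cdkn1a, which encodes p21 and is induced by p53 and by p53-independent signals, read 1449 in the double knockout against 656 in the control in probe set 1424638_at, 2.21-fold higher (log2 difference 1.14). Probe set 1421679_a_at read 773 in double knockout glomeruli and 268 in control glomeruli, 2.88-fold higher. Both sets thus put Cdkn1a past 2-fold, with a gap of 0.38 between them, and 282 of the measured genes had a larger difference. After recentring the values were 0.58 and 0.96, both under 2-fold.

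Cdkn1a has 2 starts in the RefSeq table, 2790 bases apart, and both upstream windows are shown because it was the only Cip/Kip inhibitor past 2-fold and is a classical p53 target. The upstream start has the window chr17:29090729-29090978, plus strand, and the downstream start chr17:29093519-29093768, plus strand.
Cdkn1a upstream start: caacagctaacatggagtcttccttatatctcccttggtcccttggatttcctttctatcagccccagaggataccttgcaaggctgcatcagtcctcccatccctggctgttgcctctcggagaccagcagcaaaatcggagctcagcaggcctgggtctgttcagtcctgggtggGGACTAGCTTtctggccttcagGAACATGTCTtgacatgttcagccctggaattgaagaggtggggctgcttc
Cdkn1a downstream start: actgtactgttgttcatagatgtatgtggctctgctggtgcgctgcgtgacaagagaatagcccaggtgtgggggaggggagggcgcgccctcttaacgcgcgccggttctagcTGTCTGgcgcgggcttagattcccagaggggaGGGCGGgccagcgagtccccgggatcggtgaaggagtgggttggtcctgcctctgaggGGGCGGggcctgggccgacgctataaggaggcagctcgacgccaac
The upstream window held 2 matches to the p53 consensus decamer, GGACTAGCTT at -73 and GAACATGTCT at -51. The downstream window held no p53 decamer. It held 2 GC boxes, at -104 and -46, and the SMAD motif CAGACA on the minus strand at -136, a motif found in 17.1% of all windows. Of the 9 member genes with a window, 5 held a p53 decamer, namely Cdkn1a, Gadd45a, Mdm2 (GAACTTGCCT at -186), Ccng1 (GGGCAAGCCT at -185) and Trp53 (GGACTTGCCC at -75). Several members are on the list because they are known p53 targets, so this share is no finding about the set. Of the 4 with a measured signal, Cdkn1a was past 2-fold and Gadd45a, Mdm2 and Ccng1 were not. A link between the decamer and these signals was not tested. Which start gave the transcripts read by the Cdkn1a probe sets was not tested.

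Cdkn1b, which encodes p27, read 2190 in the double knockout against 1988 in the control in its brighter probe set, a difference of 0.14. Its second set read 197 in double knockout glomeruli and 200 in control glomeruli, a difference of -0.02. The sets lay on either side of 0, and over all settings the Cdkn1b difference ran from -0.43, after recentring, to 0.15. Cdkn1c, which encodes p57, read 10998 in the double knockout against 8224 in the control, a difference of 0.42 or 1.34-fold. This was close to the median of the podocyte markers, 0.51, and after recentring Cdkn1c was at -0.15. The Cdkn1c difference was 0.65 after quantile normalization and 0.63 after removal of a trend on signal. The difference of Cdkn1a stood 1.0 above that of Cdkn1b and 0.72 above that of Cdkn1c.

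Cdkn2b was the dimmest member and the second highest by difference. It encodes p15, an inhibitor of Cdk4 and Cdk6 that transforming growth factor β is known to induce. Its probe set 1449152_at read 299 in double knockout glomeruli and 116 in control glomeruli, 2.57-fold higher (log2 difference 1.36), and 140 measured genes had a larger difference. The control signal was dim. With the floor raised to the 60th percentile of the signals the difference was 0.73, and after recentring it was 0.80, in both cases under 2-fold. Cdkn2a, which neighbours Cdkn2b and encodes p16 and Arf, read 73.3 in the double knockout against 28.0, below the floor, in the control, at least 1.39-fold higher; it was picked after its values were seen. The other INK4 genes, also chosen with their values in view, were lower, with differences of -0.27 for Cdkn2c and -0.36 for Cdkn2d. The Cdkn2b window at chr4:89311033-89311282, minus strand is shown because it was the only member window with a full cyclic AMP response element.
Cdkn2b: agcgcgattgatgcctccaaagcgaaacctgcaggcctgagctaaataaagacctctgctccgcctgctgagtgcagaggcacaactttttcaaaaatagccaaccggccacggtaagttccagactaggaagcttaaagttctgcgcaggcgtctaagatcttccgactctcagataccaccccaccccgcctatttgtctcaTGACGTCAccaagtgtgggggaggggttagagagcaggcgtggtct
The element TGACGTCA stood at -46, and 1.55% of all windows held it.

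The p53 feedback genes were near equal on the arrays. Mdm2, the ubiquitin ligase that limits p53, read 1016 in double knockout glomeruli and 979 in control glomeruli in its brightest probe set, a difference of 0.05. A second Mdm2 set read 576 in the double knockout against 599 in the control, a difference of -0.06, and the third was below the floor on both arrays. The sign for Mdm2 turned with the probe set and with the scaling, with a range from -0.51, after recentring, to 0.05 over the settings. Ccng1, the p53-induced cyclin G1, was slightly lower in all 3 probe sets. It read 4164 in double knockout glomeruli and 4616 in control glomeruli in the brightest, a difference of -0.15, and the other sets differed by -0.40 and -0.02. Its value after recentring was -0.71. The difference of Cdkn1a stood 1.09 above that of Mdm2 and 1.29 above that of Ccng1.

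**Figure D2:**
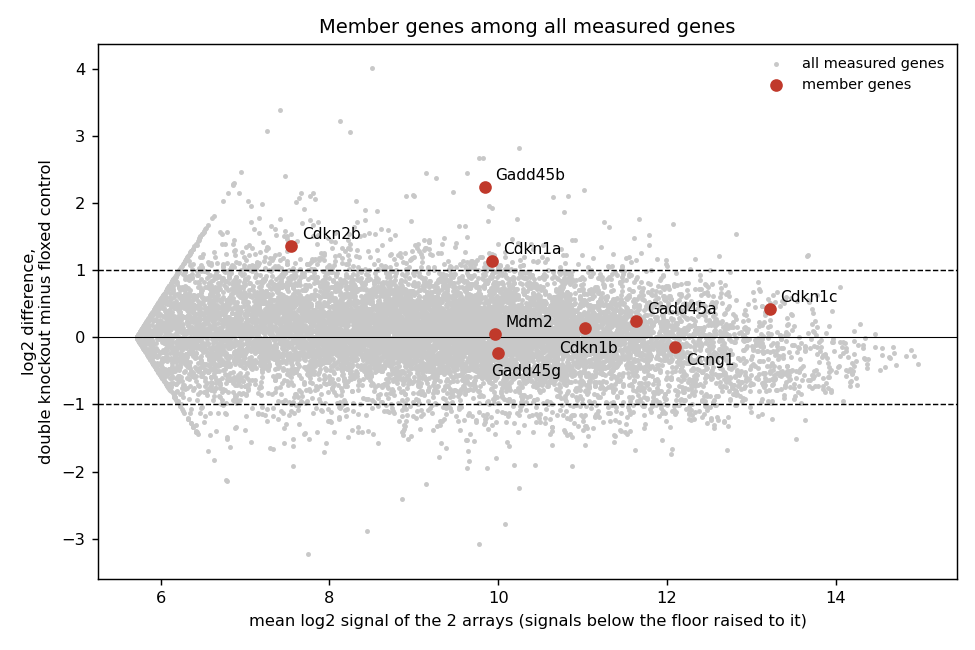
The log2 difference, double knockout minus floxed control, is plotted against the mean log2 signal of the 2 arrays for all 13290 measured genes (grey) and the 9 member genes (red), and dashed lines mark 2-fold. Gadd45b lies at 2.24 above most genes of like signal, Cdkn2b and Cdkn1a lie just past the line, and the other 6 members lie between -0.23 and 0.42.

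The other known p53 targets mostly leaned upward by small amounts. Of 33 with a named probe set 32 were measured, and 27 of these were above 0, beside 56.1% of all genes. Their median was 0.34 against 0.07 over all genes, and -0.22 after recentring. Phlda3, which encodes a p53-induced inhibitor of Akt signalling, was the only one past 2-fold, with 1138 in the double knockout against 518 in the control (2.20-fold higher). None was at least 2-fold lower, and over all measured genes 3.53% were at least 2-fold higher and 2.87% lower. After recentring 0 were at least 2-fold higher and 3 were at least 2-fold lower, beside 77 and 2047 of all 13290 measured genes. Next came the receptor gene Eda2r, at least 1.93-fold higher against a control signal below the floor, the apoptosome gene Apaf1 (1.91-fold) and Trp53i11 (1.83-fold). The second Apaf1 set differed by 0.55, against 0.93 in the first. The list's median lay below that of the glomerular cell markers, 0.57.

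Regulators of p53 and DNA damage kinases had a median difference of 0.19, which recentring turned to -0.38. None of 23 was past 2-fold, beside 3.53% of all genes higher and 2.87% lower. The list's members of largest difference were Mdc1, a mediator of the DNA damage checkpoint (1.74-fold higher), the checkpoint kinase gene Chek1 (1.64-fold higher), the coactivator gene Crebbp (1.51-fold higher) and Trp53bp2, which encodes a p53-binding protein (1.37-fold lower). The other Crebbp sets differed by -0.09 to 0.41 and the other Trp53bp2 set by -0.76, and the other Chek1 sets were below the floor on 1 array or both. For other cell cycle inhibitors and pocket proteins the median was 0.12 (-0.44 after recentring), with none past 2-fold. Of 21 genes 13 were above 0, beside 56.1% of all genes. With the probe set of median difference for each gene that median was -0.13, so the list has no settled direction. Its largest differences were those of the Krüppel-like factor genes Klf6 (1.85-fold higher) and Klf4 (1.84-fold higher), of Wee1, a kinase that inhibits Cdk1 (1.75-fold higher), and of the repressor gene E2f6. E2f6 was 1.43-fold higher in its brightest set but differed by -0.53 in its other set. The other Klf6 sets ranged from 1.77-fold to 2.82-fold higher, so not all of them stayed under 2-fold. The other set was 1.95-fold higher for Klf4 and 1.60-fold higher for Wee1.

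Most genes that drive the cycle stayed under 2-fold, as did most measured genes. Of 18 G1 cyclins, kinases and their regulators, Myc and Cdk6 were at least 2-fold higher and none lower, beside 3.53% and 2.87% of all genes. After recentring 1 of these calls was left, beside 77 of all 13290 measured genes. With the floor at the 60th percentile 1 was left, beside 274 of 10371 genes. The list's median was 0.19 and became -0.38 on recentring. Of its genes 14 were above 0 and 4 below, beside 56.1% of all genes above 0. Myc, a transcription factor that promotes growth and is known to repress Cdkn1a and Cdkn2b, read 307 in double knockout glomeruli and 102 in control glomeruli (3.00-fold higher). Cdk6, the kinase that p15 inhibits, read 1968 in the double knockout against 742 in the control (2.65-fold higher), and its other sets differed by 1.43 and 0.76. Cks1b, a kinase subunit that takes part in p27 turnover, was 1.91-fold higher in its brightest set and 2.18-fold in its other set. Ccnd2, which encodes cyclin D2, was 1.62-fold higher, with 0.55 to 0.93 over its other sets.

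For genes of S, G2 and M phase the median was 0.52 (-0.048 after recentring), and 25 of 30 measured genes were above 0, beside 56.1% of all genes. At least 2-fold higher were 3 of the 30 and none was lower, beside 3.53% and 2.87% of all genes. After recentring 0 were at least 2-fold higher and 1 was at least 2-fold lower, beside 77 and 2047 of all 13290 measured genes. Mki67, the Ki-67 proliferation marker, read 494 in double knockout glomeruli and 179 in control glomeruli (2.75-fold higher). Ube2c, which acts in mitotic exit, read 194 in the double knockout against 70.6 in the control (2.75-fold higher), and Top2a, which encodes topoisomerase II alpha, read 373 in double knockout glomeruli and 160 in control glomeruli (2.34-fold higher). The checkpoint gene Bub1b stood at 2.00-fold, just under the line, with a control signal of 55.2 near the floor. The other Top2a and Bub1b sets were below the floor on both arrays. Macrophage and monocyte markers moved the same way on these arrays, with all 19 above 0 and 6 at least 2-fold higher, beside 56.1% and 3.53% of all genes. Their median was 0.88, and their summed signal was 15371 in the double knockout against 8588 in the control. After recentring their median was 0.31 and 0 were at least 2-fold higher, beside -0.50 and 77 of 13290 over all measured genes. Of these markers Aif1 (49.1) and Itgam (36.7) read below the floor in control glomeruli, so their folds are lower bounds. Which cells held the transcripts of the cycle genes or their inhibitors cannot be read from these arrays, and the part of macrophages in the result was not tested.

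For partners of Gadd45 and the stress kinases downstream the median was 0.27 (-0.30 after recentring). Of 15 genes 9 were above 0, beside 56.1% of all genes. At least 2-fold higher were Mapk11, which encodes p38β (244 in double knockout glomeruli and 95.7 in control glomeruli, 2.55-fold), and Dusp10, a phosphatase of p38 and JNK (140 in the double knockout against 59.1 in the control, 2.37-fold). None was at least 2-fold lower, and over all measured genes 3.53% were at least 2-fold higher and 2.87% lower. Neither call held after recentring, when Mapk11 was at 0.79, Dusp10 at 0.68 and 77 of all 13290 genes were at least 2-fold higher. Neither held with the floor at the 60th percentile (274 of 10371 genes), and 1 was left with a pseudocount of 32 (377 of 13290). The other Mapk11 set was at least 2.06-fold higher, against a control signal below the floor. The Dusp10 control signal was near the floor, and the other Dusp10 set was below the floor on both arrays. Map3k4, the kinase that Gadd45 proteins bind, was 1.66-fold higher, with 0.58 to 0.76 in its other sets. Mapk12, which encodes p38γ, was 1.55-fold higher, and its other set was below the floor on both arrays.

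**Figure D3:**
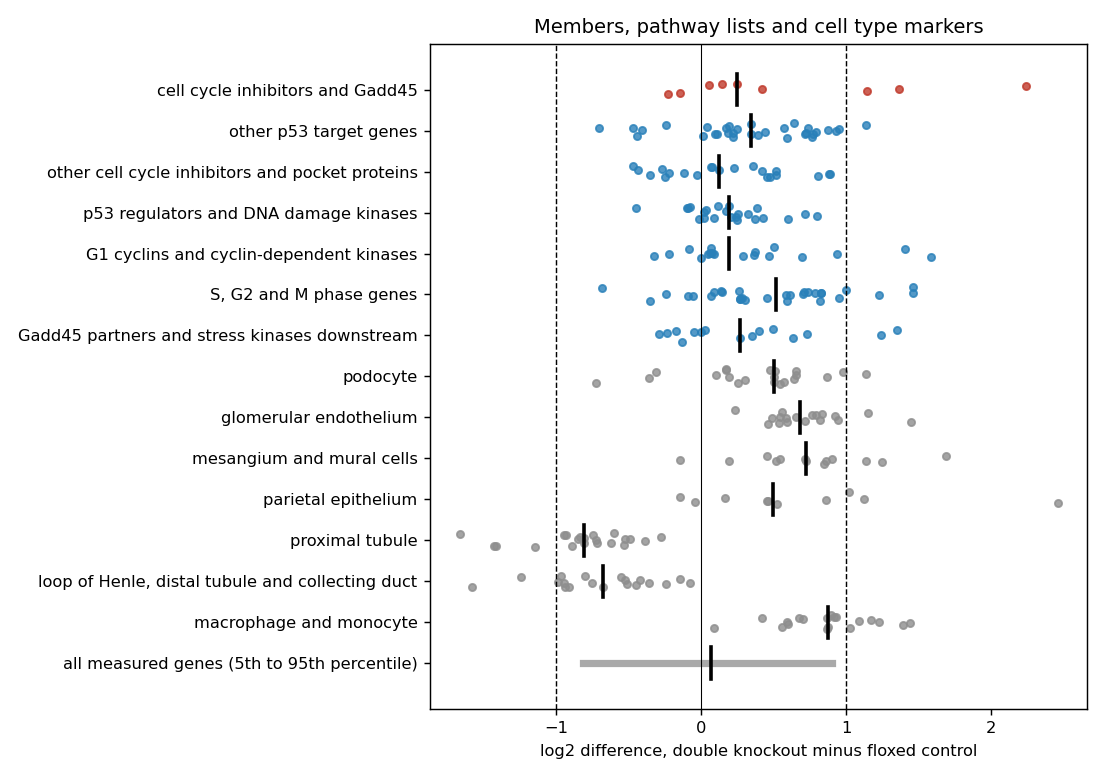
Each point is the log2 difference, double knockout minus floxed control, of a measured gene of the list named at the left, the black bars are list medians, and the grey band at the bottom spans the 5th to 95th percentile of all measured genes. Dashed lines mark 2-fold. The inhibitor and Gadd45 genes (red) reach from -0.23 to 2.24 around a median of 0.25. The pathway lists (blue) have medians from 0.12 to 0.52. After recentring these medians were all below 0, as was the median of all measured genes (-0.50). The glomerular and macrophage markers lie mostly above 0, and the tubule markers all below.

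Medians of the glomerular lists were 0.51 for podocyte (21 measured), 0.68 for endothelial (18), 0.72 for mesangial and mural (13) and 0.49 for parietal markers (10). Whether the member differences go back to the same shift was not tested. Largest among the podocyte genes were the slit diaphragm gene Kirrel (2.20-fold higher) and the phosphatase gene Ptpro (1.97-fold higher). Of the 21 podocyte markers 3 were lower, among them the semaphorin gene Sema3g, picked after its values were seen, with 10244 in the double knockout against 16960 in the control (-0.73). Below 0 were also 1 of the mesangial and mural markers, 2 of the parietal markers and 0 of the endothelial markers. The endothelial gene Gpihbp1 was 2.73-fold, the contractile gene Tagln 3.23-fold and the parietal activation gene Cd44 5.50-fold higher. Lymphocyte markers gave 4 measured genes with a median of 0.11, and neutrophil markers 7 with a median of -0.23, at low signals. Gadd45b, Cdkn2b and Cdkn1a were above the median of each glomerular list, and the other 6 members were below all of them.

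**Figure D4:**
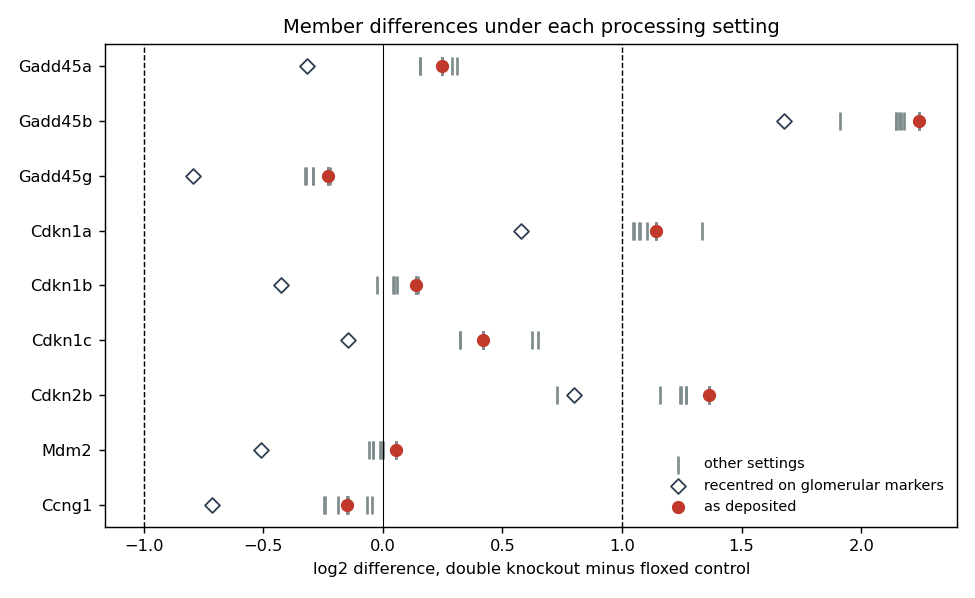
Each row gives a member gene's log2 difference, double knockout minus floxed control, as deposited (red), after recentring on glomerular markers (open diamonds) and under the other settings (grey ticks), and dashed lines mark 2-fold. Gadd45b stayed past 2-fold under all of them, between 1.67 and 2.24. Cdkn1a and Cdkn2b dropped under 2-fold after recentring, to 0.58 and 0.80, as did Cdkn2b with the highest floor. Gadd45a, Cdkn1b, Cdkn1c and Mdm2 turned below 0 after recentring, as did the median of all measured genes (-0.50).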

How the data were processed

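Glomeruli were isolated by graded sieving and their RNA was hybridised to 1-colour Affymetrix arrays, per the labels' protocols. The authors deposited 1 linear intensity per probe set and array, which MAS5 produced according to the submitters' processing notes; the version is not given in the sources used here. From the values, the mean after leaving out the lowest and highest 2% was 500.0 on both arrays. Each difference is therefore relative to the rest of its sample.

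No rescaling was applied, and 64 control probe sets were dropped. GEO's platform annotation gave 34945 probe sets 1 symbol, 932 several and 9160 none. A gene was represented by its probe set of highest mean log2 signal, without _x_at sets where another existed. The floor was the mean of the arrays' 40th percentiles, to which dimmer signals were lifted ahead of the log2 step. A gene counted as measured if either array reached the floor, and as called if it differed at least 2-fold. No test was possible with 1 array per group, and the number of arrays limits the precision.

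The members and all gene lists were chosen with earlier results of these data known. Named genes were all members, Npr1 and Mapk14, up to 4 genes of largest difference per pathway list and up to 2 per cell type list. Nphs1, Sema3g, Cdkn2a, Cdkn2c and Cdkn2d were picked after their values were seen. Promoters are from RefSeq (GRCm38.p6), found for 9 member genes in 10 windows, and none was found for Cdkn1c. The planned protein comparison was not made. The steps were tested on simulated signals. Python 3.11.15, numpy 2.4.6, pandas 2.3.3 and statsmodels 0.14.6 were used.

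Alternatives were other floors, a pseudocount of 32, other scalings, recentring on glomerular markers, other choices of probe set, and 1.5-fold and 3-fold rules.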

Additional observations from a re-analysis of the deposited data

How the results depend on the processing

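No paired analysis was possible because each genotype had 1 array. A value was called moved where it shifted by more than 0.22 on the log2 scale, the median gap between probe sets of a gene, and a count where it changed by more than 1.5 times. No member past 2-fold changed sign under any alternative. Recentring on glomerular markers moved the most. Its shift of 0.57 is larger than the limit of 0.22, so every log2 value was bound to be called moved. Recentring left 1 member at least 2-fold higher (3 as deposited) and put the members' median at -0.32. It put the list medians at -0.22 for other p53 targets, -0.44 for other inhibitors, -0.38 for p53 regulators, -0.38 for G1 genes, -0.048 for S, G2 and M phase genes and -0.30 for Gadd45 partners. The count at least 2-fold higher became 1 for G1 genes and 0 for p53 targets, for S, G2 and M phase genes and for Gadd45 partners. The count at least 2-fold lower became 3 for p53 targets and 1 each for other inhibitors, p53 regulators and S, G2 and M phase genes. Recentring subtracts the same value from every gene. Over all genes it left a median of -0.50, with 77 higher and 2047 lower (469 and 382 as deposited). Median and 75th percentile centring gave 333 higher and 530 lower, a share of 38.6% higher against 55.1%, and a median of all genes of -0.02.

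A floor at the 25th percentile or none gave 4 p53 targets and 1 other inhibitor at least 2-fold higher. Over all genes, 675 of 15603 were then at least 2-fold higher with the lower floor and 1655 of 18193 with none, beside 469 of 13290 as deposited. A floor at the 60th percentile gave 1 G1 gene, 0 Gadd45 partners, and a median of 0.25 for S, G2 and M phase genes, with 274 of 10371 genes at least 2-fold higher. A pseudocount of 32 gave 2 p53 targets and 1 Gadd45 partner, with 377 of 13290 genes at least 2-fold higher. The probe set of median difference put other inhibitors at -0.13. The 1.5-fold rule, which 13.7% of all genes pass upward and 10% downward, gave 12 p53 targets, 3 other inhibitors, 3 p53 regulators, 4 G1 genes, 14 S, G2 and M phase genes and 4 Gadd45 partners higher, and 1 p53 target and 1 S, G2 and M phase gene lower. The 3-fold rule (0.549% of all genes upward) gave 1 member, 1 G1 gene, and 0 p53 targets, S, G2 and M phase genes and Gadd45 partners. Dim control signals, as for Cdkn2b (116), Ube2c (70.6) and Dusp10 (59.1) beside the floor of 52.7, limit those folds. Where no cause is named, the cause was not tested.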
